A study of Caenorhabditis elegans with 48 samples.

Results

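The genes described here, 57 in number, were higher after a short heat shock both in Caenorhabditis elegans with HSF-1 and in worms whose soma had been depleted of HSF-1, out of 12191 genes listed in the deposited tables of all 4 strains. They were chosen from the deposited log2 CPM values, where CPM is the read count of a gene scaled to a common library size. A gene qualified where the mean after heat exceeded the mean without heat by at least 1 (log2) on ethanol plates in CA1200, CA1199 and JTL621 and on auxin plates in JTL611, with a heated mean of at least 1 (log2 CPM) in each of those groups. Of 72 genes past these thresholds, 15 were set aside by name, among them the hsp-16 genes, F44E5.4, F44E5.5, kreg-1, zip-10, adh-1, tts-1 and atf-2, so the 57 hold no classical heat shock protein gene. The values of those 4 contrasts are therefore given only as a description. Just inside the threshold were ZC449.5, with a difference of 1.01 on auxin in JTL611, and F45D3.3, with 1.02 in CA1199. Just outside were H40L08.2, with 0.998 in CA1200, and phat-7, with 0.985 on auxin in JTL611.

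The worms were young adults, grown for 51 h from synchronized larvae, kept for 2 h on auxin or on ethanol, the solvent, and then collected at 20 °C or after 30 min in a water bath at 34 °C. All 4 strains carry unc-119(ed3) III with a Cbr-unc-119(+) rescue and a TIR1::mRuby transgene. TIR1 is a plant F-box protein that, with auxin, marks degron-tagged proteins for destruction. CA1200 and JTL611 carry ieSi57 on chromosome II, which drives TIR1 in the soma from the eft-3 promoter with an unc-54 3′ end. CA1199 and JTL621 carry ieSi38 on chromosome IV, which drives TIR1 in the germline from the sun-1 promoter with a sun-1 3′ end. JTL611 and JTL621 also carry hsf-1::aid::gfp on chromosome I, so auxin depletes HSF-1 from the soma in JTL611 and from the germline in JTL621. HSF-1 is untagged in CA1200 and CA1199, which serve as controls for auxin itself. Each of the 16 groups had 3 replicates of whole worms. Replicates carry numbers in the labels, with no word on whether they were separate cultures, so p-values measure the spread between these libraries, which may be technical.

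HSF-1 is the conserved transcription factor that binds heat shock elements and turns on chaperone genes when proteins misfold. Worms also change many other transcripts on heating, through other regulators and through changes in splicing, RNA decay and RNA processing, and these changes are less well described than the chaperone response. Heat-induced genes other than chaperone genes include enzymes of lipid and sugar use, cuticle and muscle genes and RNAs that encode no protein. Whether each of them needs HSF-1 is a separate question.

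Polyadenylated RNA was sequenced from directional libraries, with 9000611 to 24025791 reads on listed genes per library. A count of 3 reads, the most that a count of 0 allows, corresponded to 0.127 to 0.478 CPM, and this floor covers counting error only. Cytosolic rRNA genes held a median of 8.19% of these reads and 34.4% in 1 heated library, JTL621 on auxin, replicate 2. Without this library 54 members rose with heat in that group in place of 55, with a median of 2.07 in place of 2.13, and the call lost was that of myo-2 (adjusted p = 0.0614). The 9 inducible heat shock genes set beside the members rose by a median of 8.09 (log2) with heat on ethanol in JTL611, and their median was 2.48 on auxin in the same strain.

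Heat raised nearly all of the 57 genes in comparisons of libraries that had no part in choosing them. The spread behind each test came from all 12 libraries of a strain, including those that chose the members. In JTL611 on ethanol, 52 of 57 rose (limma, adjusted p under 0.05), where 2.31% of all genes tested rose, and the median change was 2.03 (log2). The 5 that did not pass were myo-2, marg-1, ZC449.5, the kinase gene kin-36 and the pseudogene WBGene00018225. On auxin, 53 rose in CA1200, where 9.57% of all genes rose, with a median of 1.88. There the 4 that did not pass were F46C5.1, F55H12.2, nspe-1 and WBGene00018225. On auxin, 55 rose in CA1199, where 3.83% of all genes rose, with a median of 1.75, and F11E6.4 and K08B4.7 did not pass. On auxin, 55 rose in JTL621, where 6.22% of all genes rose, with a median of 2.13, and F29B9.5 and pqn-75 did not pass. The median of all genes tested lay within 0.01 of 0 in each of these contrasts. In all, 45 members rose in all 4 contrasts, 11 in 3 and WBGene00018225 in 2, and none fell. Fitted to the 6 libraries compared alone, 44, 54, 55 and 53 members rose in the order above, and 41 rose in all 4. Over all genes, 136 of 12010, 727 of 11878, 1303 of 12184 and 181 of 12228 rose in those fits. Members named here for failing the test, where the naming rule does not reach them, were picked after their values were seen.

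The heated libraries also stood clear of the unheated ones for most members. All 3 heated libraries were above all 3 unheated libraries for 55 members in JTL611 on ethanol (9.66% of all genes), 54 in CA1200 on auxin (19% of all genes), 57 in CA1199 on auxin (20.5%) and 56 in JTL621 on auxin (12.5%). Averaged over the 4 contrasts, the change of a member ran from 0.81 to 4.50 (log2 fold change): 6 members averaged at least 3, 22 lay between 2 and 3, and 29 lay below 2. Heated levels ran from 2.67 to 852 CPM, with a median of 13 CPM. In the contrasts that chose the members, the median difference was 1.81 in CA1200, 1.68 in CA1199 and 1.95 in JTL621 on ethanol, and 2.05 in JTL611 on auxin.

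**Figure D1:**
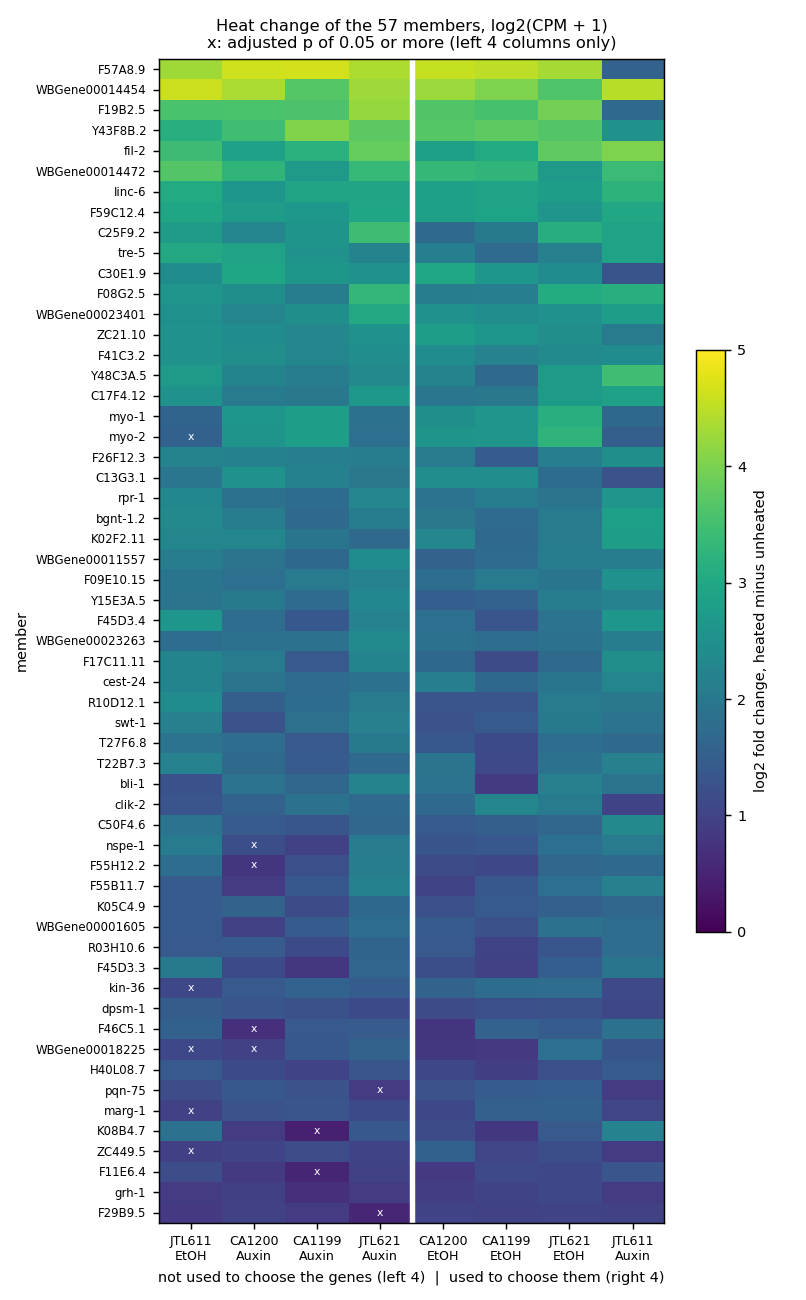
Heat change (log2 fold change of CPM + 1, colour from 0 to 5) of each of the 57 members, 1 row per gene in order of the mean over the left 4 columns, in 8 strain and plate combinations. Crosses mark the changes of the left 4 columns that did not pass an adjusted p of 0.05, which lie mostly in the lower rows. F57A8.9, F19B2.5 and C30E1.9 have darker cells in the last column, JTL611 on auxin, than in the others.

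The most abundant members were the ribosomal RNAs of the mitochondrion, WBGene00014454 (696 bases, MtDNA 898 to 1593, WBcel235) and WBGene00014472 (952 bases, MtDNA 10403 to 11354). They form the RNA core of the mitochondrial ribosome and are transcribed from the mitochondrial chromosome. WBGene00014454 stood at 32.6, 43.5 and 45.7 CPM in the unheated JTL611 libraries on ethanol and at 1048, 1022 and 940 CPM in the heated ones. In JTL621 on auxin it stood at 38.2, 44.4 and 46.1 CPM unheated and at 851, 1015 and 691 CPM heated. The 3 heated libraries lay far above the 3 unheated ones in both strains. The change was 4.61 ± 0.12 (log2, SE, n = 3 per group, limma adjusted p = 2.2e-10) in JTL611 on ethanol. On auxin it was 4.37 ± 0.16 in CA1200, 3.69 ± 0.24 in CA1199 and 4.27 ± 0.21 in JTL621 (adjusted p of 2.75e-10, 1.5e-07 and 2.19e-08).

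WBGene00014472 moved in the same way at a lower level. It was at 45.0, 39.7 and 49.8 CPM unheated and at 490, 443 and 388 CPM heated in CA1200 on auxin, a change of 3.27 ± 0.20 (log2, SE). In JTL621 on auxin the heated libraries held 312, 618 and 287 CPM. The high library of those 3 was the one rich in cytosolic rRNA. With that library the change was 3.36 ± 0.26, and without it 3.01 ± 0.19. The changes in JTL611 on ethanol and CA1199 on auxin were 3.66 ± 0.20 and 2.68 ± 0.19. Summed, the pair took 0.00606 to 0.0147% of reads in the 24 unheated libraries and 0.0833 to 0.166% in the 24 heated ones, and the ranges did not overlap.

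The 12 mitochondrial protein genes, which encode subunits of the respiratory chain, had median changes of 0.09, −0.14, −0.30 and −0.28 (log2) in JTL611 on ethanol and in CA1200, CA1199 and JTL621 on auxin. None of the 12 rose, and 1, 1, 3 and 3 fell. Their summed share was 0.610 to 0.920% of reads in unheated libraries and 0.50 to 0.850% in heated ones. The 4 cytosolic rRNA genes tested had median changes of 0.47, 0.68, −0.07 and 1.08 in the same order, and none passed the test. Because the RNA was selected for polyA tails, rRNA counts depend on how the selection worked, and the part of that step in the result was not tested.

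**Figure D2:**
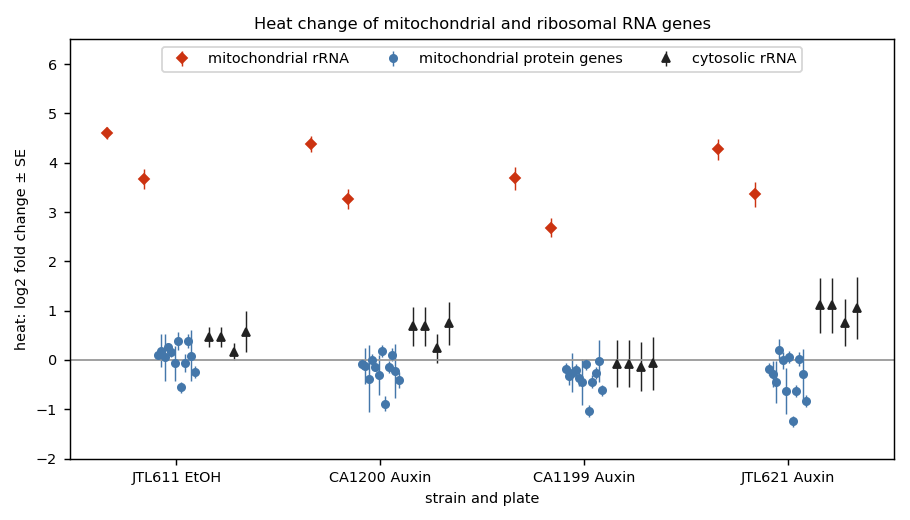
Heat change (log2 fold change ± SE, 3 libraries per group) of the 2 mitochondrial rRNA genes, the 12 mitochondrial protein genes and 4 cytosolic rRNA genes in the 4 contrasts not used to choose the members. The mitochondrial rRNAs lie between 2.68 and 4.61, and the mitochondrial protein genes between −1.25 and 0.39.

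All 6 members annotated as ncRNA or lincRNA (C30E1.9, F57A8.9, linc-6, rpr-1, F09E10.15 and K02F2.11) rose in all 4 contrasts, with medians between 2.37 and 2.46 (log2). Among all 71 to 76 ncRNA and lincRNA genes tested, 11 to 15 rose, these 6 included. F57A8.9, a 222-base ncRNA (V:10048167-10048388, minus strand), was listed at 0 reads in 21 of 24 unheated libraries. In JTL611 on ethanol it had 0 reads in each unheated library and 23.7, 17.6 and 15.5 CPM in the heated ones, which is at least 108-fold higher when set against a floor of 3 reads per library. On auxin the same bound was 146-fold in CA1200, 133-fold in CA1199 and 106-fold in JTL621, with 0 reads in all 9 unheated libraries. The protein-coding gene F57A8.1, on the opposite strand over all 222 bases, went the other way, with deposited log2 differences of −0.85 to −1.15 over the 8 heat contrasts. Whether counting used the strand is not given in the sources used here.

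C30E1.9 was the longest noncoding member and, after the mitochondrial rRNAs, the most abundant, annotated over 14770 bases (X:16929914-16944683, plus strand). In CA1200 on auxin it stood at 46.5, 44.6 and 63.6 CPM unheated and at 388, 419 and 380 CPM heated, with a change of 2.93 ± 0.15 (log2, SE, adjusted p = 8.45e-09). In CA1199 and JTL621 on auxin the changes were 2.65 ± 0.16 and 2.56 ± 0.19. linc-6, a 174-base lincRNA (X:1982710-1982883), went from 0.553, 0.585 and 0.934 CPM to 9.98, 12.4 and 6.63 CPM in CA1200 on auxin, without overlap. Its change was close to the same in every strain, between 2.63 and 3.06 over the 4 contrasts.

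rpr-1, the RNA subunit of RNase P, the enzyme that trims the 5′ ends of tRNA precursors, lies on the opposite strand within ints-8. It is named for its role, after its values were seen. It was at 0.352, 0.566 and 0.903 CPM unheated and at 9.15, 6.73 and 5.59 CPM heated in JTL611 on ethanol, and rose by 2.33 ± 0.19 there and by 1.78 to 2.32 in the other 3 contrasts. The deposited difference of ints-8 was 0.07 to 0.53 in the 8 heat contrasts. The 11 or 12 snoRNA genes tested had medians between −0.09 and 0.12. The other short members were F59C12.4, a protein-coding gene of 150 bases, which rose by 2.67 to 2.97, and the pseudogenes WBGene00023401 and WBGene00023263 of 73 and 82 bases, which rose by 2.27 to 3.02 and by 1.81 to 2.38.

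fil-2, a lipase gene known for its induction by fasting (V:6279031-6280146), was near the detection floor without heat and clearly present after it. On auxin it stood at 0.0615, 0.0532 and 0.104 CPM unheated and at 7.26, 7.16 and 5.95 CPM heated in CA1200. In JTL621 on auxin it stood at 0.310, 0.0792 and 0.174 CPM unheated and at 10.8, 23.8 and 15.1 CPM heated. The groups did not overlap in any strain. The changes were 3.44 ± 0.18 in JTL611 on ethanol and 2.86 ± 0.14, 3.20 ± 0.17 and 3.82 ± 0.24 on auxin in CA1200, CA1199 and JTL621 (log2, SE), and the pseudocount of 1 CPM makes these smaller than the ratio of levels.

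tre-5 encodes a trehalase, which splits the sugar trehalose (II:52997-55304, minus strand). It went from 0.211, 1.39 and 0.478 CPM to 10.8, 14.6 and 11.1 CPM in JTL611 on ethanol, a change of 3.01 ± 0.24 (log2, SE, adjusted p = 1.19e-05). Its unheated level was less even in the germline TIR1 strains: 2.12, 6.42 and 1.28 CPM in JTL621 on auxin, where heated libraries held 14.4, 15.6 and 20.3 CPM. The change there was 2.23 ± 0.37. In CA1199 on ethanol, 1 unheated library at 6.69 CPM was above 1 heated library at 6.32 CPM, the only overlap among the 8 heat contrasts of tre-5. sptl-1, on the opposite strand over the whole of tre-5, was lower after heat by 0.04 to 0.47 in the deposited values. Members outside the naming rule were cest-24, a carboxylesterase gene, which rose by 1.75 to 2.26, swt-1, a SWEET family sugar transporter gene, which rose by 1.28 to 2.18, and bgnt-1.2, a glycosyltransferase gene, which rose by 1.73 to 2.34. In CA1200 on auxin bgnt-1.2 had 0 unheated reads and 3.09, 3.06 and 3.74 CPM after heat, at least 19.8-fold higher.

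Several of the strongest members are protein-coding genes known only by a sequence name. F19B2.5 (V:20162615-20164165, minus strand) rose from 12.1, 13.8 and 28.2 CPM to 215, 265 and 168 CPM in CA1200 on auxin. In CA1199 on auxin it rose from 34.8, 26.8 and 24.8 CPM to 339, 355 and 377 CPM. The groups were well apart, and the changes in the 4 contrasts ran from 3.55 ± 0.42 in JTL611 on ethanol to 4.2 ± 0.30 in JTL621 on auxin (log2, SE). Y43F8B.2 (V:19519938-19533110, minus strand) went from 6.33, 6.07 and 7.71 CPM to 133, 120 and 124 CPM in CA1199 on auxin, and its changes ran from 3.14 to 4.04.

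F26F12.3 was the next most abundant of the coding members and had nearly the same change in all 4 contrasts, 2.13 to 2.24. In JTL611 on ethanol it stood at 46.0, 54.7 and 35.2 CPM unheated and at 145, 266 and 255 CPM heated. C25F9.2 was rare without heat, with 0 to 0.214 CPM in each unheated JTL611 library, and rose by 2.74 ± 0.23 on ethanol in that strain. In CA1199 on auxin it had 2 unheated and 308 heated reads, a ratio of 128 with a counting interval of 35.0 to 1059. Per kilobase of exon, heated levels of the 57 members ran from 1.02 CPM to 1224 CPM per kb, with the mitochondrial rRNA WBGene00014454 at the top.

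**Figure D3:**
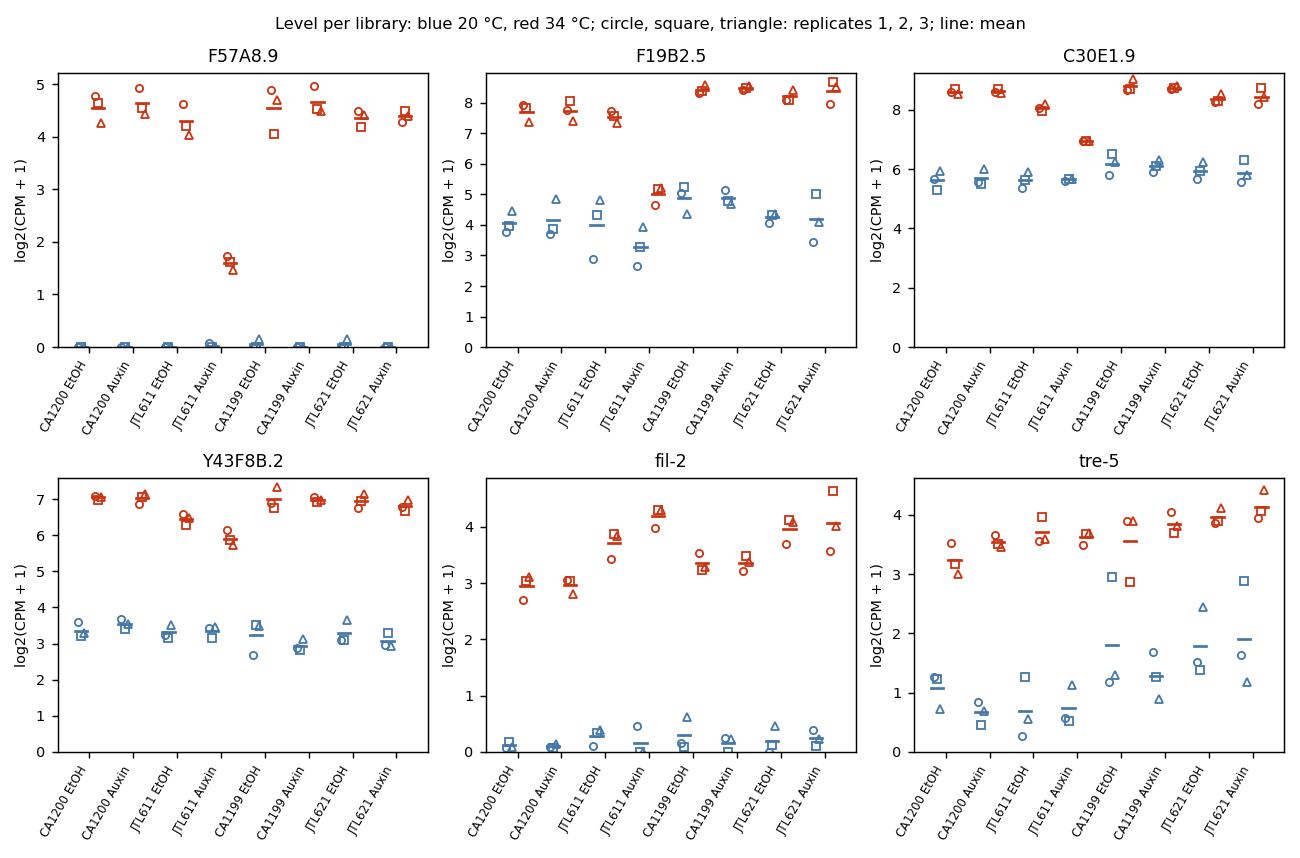
Level in every library (log2 of CPM + 1) of 6 members, by strain and plate, with 20 °C in blue, 34 °C in red and a line at the mean of 3 libraries. Heated libraries of F57A8.9, F19B2.5, C30E1.9 and Y43F8B.2 are lower in JTL611 on auxin than in the other groups, while fil-2 is higher there than on ethanol and tre-5 is about as high.

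The pharynx is the feeding organ of the worm. myo-1 and myo-2 encode myosin heavy chains of pharyngeal muscle, marg-1 is a pharynx marker, clik-2 encodes a calponin-like protein and pqn-75 a glutamine- and asparagine-rich protein of the pharyngeal gland. myo-1 stood at 13, 24.4 and 9.60 CPM unheated and at 73.5, 74.1 and 157 CPM heated in CA1200 on auxin, and at 7.98, 5.13 and 19.2 CPM unheated and 51.5, 108 and 65.0 CPM heated in CA1199. It rose by 2.63 ± 0.32 and 2.80 ± 0.34 there (log2, SE), by 1.86 ± 0.49 in JTL621 on auxin and by 1.61 ± 0.38 in JTL611 on ethanol (adjusted p = 0.0241). myo-2 followed with 2.59, 2.80 and 1.82 on auxin. In JTL611 on ethanol it stood at 16.9, 19.7 and 30.0 CPM unheated and at 38.8, 52.6 and 136 CPM heated, without overlap, and 1.56 ± 0.46 did not pass (adjusted p = 0.0715). With the replicate number as a block it did (adjusted p = 0.00136).

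marg-1 rose by 1.28, 1.32 and 1.13 on auxin in CA1200, CA1199 and JTL621, and its 0.99 ± 0.34 in JTL611 on ethanol did not pass (adjusted p = 0.124, and 0.0258 with the block). clik-2 rose in all 4 contrasts, by 1.32 to 1.86. pqn-75 rose in 3, by 1.19 to 1.37, and its 0.89 ± 0.32 in JTL621 on auxin did not pass (adjusted p = 0.07). The spread of these 5 genes was shared between libraries. In the heated groups of CA1200 and JTL611, on both plates, replicate 3 was the highest library for all 5 genes in 4 of 4 groups, whereas in CA1199 and JTL621 it was the highest in 0 to 2 of 4 groups. Unheated pqn-75 stood at 1.23 to 3.14 CPM in CA1200 and JTL611 and at 0.305 to 2.09 CPM in CA1199 and JTL621, in tables that were normalised separately.

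Of the 4 pharynx markers tested that are not members, 2 rose in JTL611 on ethanol, 1 in CA1200, 1 in CA1199 and 3 in JTL621 on auxin, and their part in the result was not tested. tnt-4, a troponin T gene, rose by 1.32, 1.3, 1.56 and 1.3 in that order. phat-3 had values of 0.67, 0.66, 0.64 and 0.76 and passed in JTL611 and JTL621, and tni-4, a troponin I gene, passed in JTL621 alone. pha-4, the regulator that specifies the organ, had values of 0.07, 0.32, 0.10 and −0.34 and did not pass. Summed over these 4, the markers held 25.8 to 31.5 CPM unheated and 32.7 to 53.0 CPM heated in CA1200 on auxin. Of 9 genes of body wall muscle, 1, 3, 6 and 0 rose in the same order. Intestine markers rose in 0 of 10 and fell in 3, 4, 5 and 4, and neuron markers rose in 0 of 11 and fell in 3, 5, 5 and 5. RNA came from whole worms, so a gain in the share of RNA from the pharynx cannot be told apart from more transcript per pharyngeal cell.

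**Figure D4:**
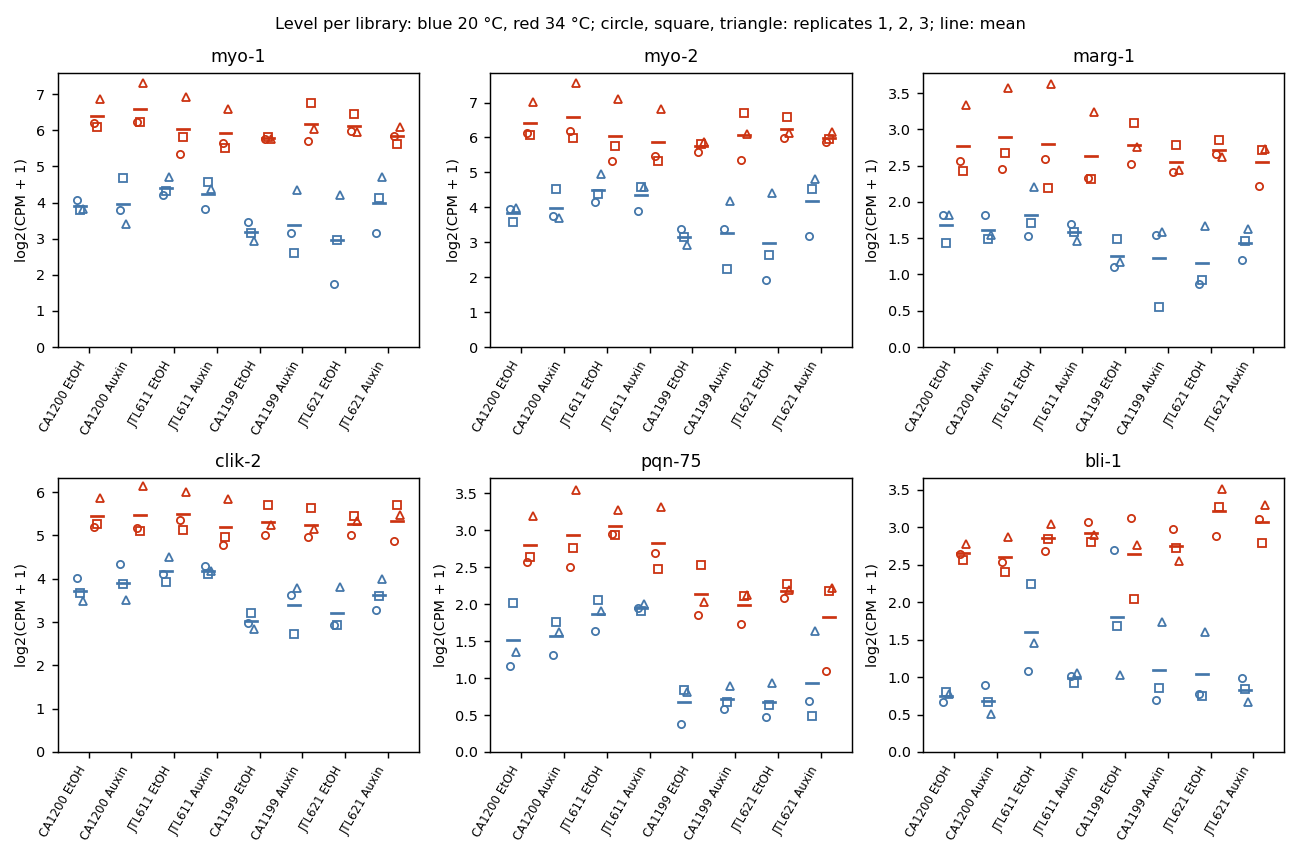
Level in every library (log2 of CPM + 1) of 5 members with pharynx expression and of the cuticle collagen gene bli-1, with 20 °C in blue, 34 °C in red, replicates 1, 2 and 3 as circle, square and triangle, and a line at the mean. The heated triangle is the highest point of the 5 pharynx genes in CA1200 and JTL611 on both plates.

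bli-1, a collagen gene of the adult cuticle (II:10708960-10712156), was the epidermal marker among the members. It went from 0.860, 0.585 and 0.415 CPM to 4.78, 4.29 and 6.29 CPM in CA1200 on auxin, a change of 1.91 ± 0.15 (log2, SE). Its unheated level was uneven in CA1199 on ethanol, at 5.48, 2.21 and 1.03 CPM against 7.68, 3.13 and 5.79 CPM heated, where the groups overlapped. It rose in all 4 contrasts, by 1.26 to 2.24, and it was the only riser of the 4 or 5 epidermis markers tested in each. Symbols starting with col- or dpy- could not be members, and dpy-17 exceeded the thresholds and was set aside by name. bli-1 lies within dph-2, on the opposite strand, whose deposited difference was 0.08 to 0.34. grh-1, the Grainyhead transcription factor gene of epithelia (I:1258201-1268155, minus strand), had low levels and a small change in every strain: 1.17, 0.957 and 1.04 CPM unheated and 2.96, 2.88 and 3.0 CPM heated in CA1200 on auxin. It rose by 0.69 to 0.94 in the 4 contrasts. In CA1199 on auxin its adjusted p of 0.0295 went above 0.05 (0.0609 to 0.0972) without any 1 of 5 of the 6 libraries.

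The smallest average changes were those of F29B9.5, grh-1, F11E6.4, ZC449.5 and K08B4.7. F29B9.5 stood at 1.08, 1.43 and 0.640 CPM unheated and at 1.53, 2.55 and 1.82 CPM heated in JTL621 on auxin. Its 0.54 ± 0.21 there did not pass (adjusted p = 0.0993), and its 0.84 ± 0.22 in JTL611 on ethanol passed (adjusted p = 0.0396). F29B9.5 did not pass in JTL611 on ethanol without replicate 1 or 3 of either group. It also failed there with the deposited log2 values, with limma-voom and in a fit to the 6 libraries compared (adjusted p of 0.0564 to 0.181 over these 7 alternatives). K08B4.7 rose by 1.89 ± 0.25 in JTL611 on ethanol and by 1.39 ± 0.17 in JTL621 and 0.88 ± 0.23 in CA1200 on auxin, and its 0.45 ± 0.17 in CA1199 on auxin did not pass (adjusted p = 0.0901). F11E6.4 changed by 0.52 ± 0.17 in CA1199 on auxin (adjusted p = 0.0568) and rose by 0.85 to 1.18 in the other 3 contrasts. ZC449.5 changed by 0.95 ± 0.27 in JTL611 on ethanol (adjusted p = 0.0584, and 0.00829 with the replicate number as a block) and rose by 1.0 to 1.18 on auxin. Averaged over the heated groups of the 4 tested contrasts, all 5 were under 10 CPM.

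In JTL611 the response after depletion of somatic HSF-1 can be set beside that on ethanol, as a description, because the auxin arm chose the members. The depletion left part of the classical response: 8 of the 9 inducible heat shock genes still rose on auxin, with a median of 2.48 (log2). TIR1 is driven in the soma of this strain, so germline HSF-1 was not the target. The part of any remaining HSF-1 in the response of the members was not tested. Over the 57, the heat change on auxin minus that on ethanol had a median of 0.05 (log2), and it was smaller on auxin for 24 and larger for 33. Heated levels on auxin overlapped those on ethanol for 37 members. All 3 heated auxin libraries were below all 3 heated ethanol libraries for 10 (4.09% of all genes) and above them for 10 (2.9% of all genes). In CA1200, which has no tagged HSF-1, the same counts were 2 below, 2 above and 53 overlapping. No share of all genes was at hand there, so these counts cannot be set against those of JTL611. Of the 10 above in JTL611, 2 (cest-24 and C17F4.12) were also above in CA1200 and 1 (WBGene00001605) was below. The 10 below in JTL611 all overlapped in CA1200. For comparison, the 5 heat-induced genes set aside by name had medians of 2.67 on ethanol and 2.91 on auxin.

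In JTL611, 5 members met the thresholds on auxin with a smaller response than on ethanol. They are those lower at an FDR under 0.05 in the authors' deposited comparison given below. Whether they need somatic HSF-1 was not tested. F57A8.9 stood at 23.7, 17.6 and 15.5 CPM in heated JTL611 worms on ethanol and at 2.31, 2.09 and 1.76 CPM on auxin. F19B2.5 stood at 214, 189 and 161 CPM on ethanol and at 24.1, 35.4 and 36.3 CPM on auxin. C30E1.9 stood at 268, 245 and 295 CPM on ethanol and at 122, 123 and 122 CPM on auxin. The 2 groups did not overlap for any of the 3, and heated auxin means were 0.109, 0.170 and 0.454 times the ethanol means. In CA1200 the same ratios were 1.06, 1.02 and 1.01.

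C13G3.1 and Y43F8B.2 were lower to a lesser degree. C13G3.1 was at 14, 11.9 and 14 CPM on ethanol and at 8.60, 8.35 and 7.20 CPM on auxin, and Y43F8B.2 at 94.6, 76.8 and 88.0 CPM on ethanol and at 69.5, 56.9 and 51.5 CPM on auxin. Their heated auxin means were 0.605 and 0.686 times the ethanol means, and in CA1200 the same ratios were 0.920 and 0.984. In the authors' deposited table of auxin against ethanol after heat in JTL611, these 5 were lower at an FDR under 0.05 and no member was higher. The logFC in the authors' deposited table was −3.19 for F57A8.9 (FDR 1.41e-53), −2.66 for F19B2.5 (FDR 1.92e-09), −1.14 for C30E1.9 (FDR 3.0e-22), −0.73 for C13G3.1 (FDR 0.00388) and −0.54 for Y43F8B.2 (FDR 0.00124). The authors' deposited table for CA1200 held 1 member past that FDR, ZC21.10 (logFC −0.60, FDR 0.0157), and that for CA1199 held cest-24 (logFC 0.75, FDR 0.00233). The authors' deposited table for JTL621 held 0. The share of all genes past that FDR is not given here, so these counts describe the members only.

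By the rule of choice all 5 were at least 1 (log2) higher after heat on auxin in JTL611, so their remaining difference from unheated worms is no separate result. Unheated JTL611 worms on auxin held 5.3, 8.71 and 14.2 CPM of F19B2.5 and 47.8, 50.0 and 50.0 CPM of C30E1.9, below every heated library. F57A8.9 had 1 unheated read over the 3 libraries and 100 heated reads, a ratio of 98.6 with a counting interval of 17.3 to 3933. Members at the other end had a larger heat change on auxin than on ethanol in JTL611: Y48C3A.5 by 0.78, F55B11.7 by 0.75, bli-1 by 0.67 and fil-2 by 0.60. In CA1200 those 4 differences were 0.01, −0.14, 0.00280 and 0.02. These 4 and C13G3.1 are named after their values were seen where the naming rule does not reach them. Heated auxin libraries of Y48C3A.5, F55B11.7 and fil-2 were all above the heated ethanol ones. Those of bli-1 overlapped, with means of 6.62 CPM on auxin and 6.31 CPM on ethanol. Its unheated means were 0.99 CPM on auxin and 2.21 CPM on ethanol.

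**Figure D5:**
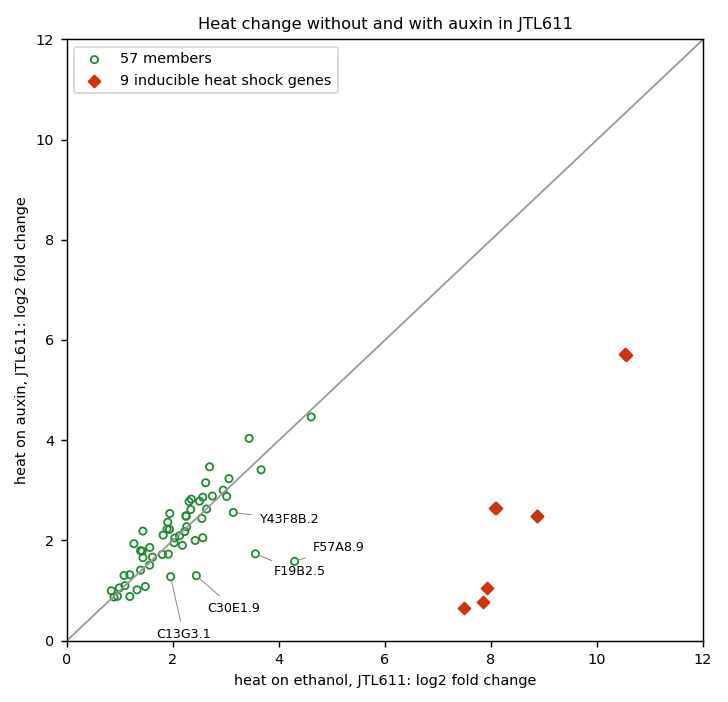
Heat change in JTL611 on ethanol (x axis) and on auxin (y axis), both log2 fold changes of CPM + 1, for the 57 members (circles) and 9 inducible heat shock genes (diamonds, some of which coincide), with the line of equal change. Most circles lie near the line, 5 named members lie below it, and all diamonds lie far below it.

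The heat change on auxin was also compared between JTL621, where auxin depletes germline HSF-1, and CA1199, through 12 libraries that did not choose the members. The change was larger in JTL621 for 41 members and smaller for 16, with a median difference of 0.31 and a range of −0.98 (myo-2) to 1.2 (F08G2.5). None of the 57 differences passed (limma interaction, smallest adjusted p = 0.54), and none of 12047 genes did, so 0% were called. Without adjustment, 13 members had p under 0.05 with a larger change in JTL621 (5.62% of all genes) and 0 with a smaller one (3.18% of all genes). Fitted to the 12 auxin libraries alone, 12 members had a larger change at that level (3.18% of all genes) and 0 a smaller one (303 of 12047 genes). Without the library rich in cytosolic rRNA, 9 members had p under 0.05 with a larger change (1.69% of all genes). As a count and a median, the gap between the strains was much the same on ethanol, where HSF-1 is not depleted. There it was larger in JTL621 for 43 members and smaller for 14, with a median of 0.31. This is a description, since those libraries chose the members. C25F9.2 had a gap of 1.1 on ethanol and 0.87 on auxin, fil-2 of 0.72 and 0.63, and K08B4.7 of 0.57 and 0.94. Other members changed sign between the plates, among them myo-1 (0.55 and −0.95), myo-2 (0.64 and −0.98) and WBGene00014454 (−0.41 and 0.58). The strain and the depletion cannot be told apart in the auxin gap. Of 17 sperm markers, 13 rose with heat in JTL621 on auxin and 0 in CA1199, and the part of sperm RNA in these differences was not tested.

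The thresholds did not use gene class, size or position, but the setting aside of genes by name also acts on these shares. Of the 57, 44 (77.2%) were protein-coding, against 96.4% of all listed genes, and 5 (8.77%) were pseudogenes, against 2.80%. The class ncRNA held 5 (8.77%), against 0.468%. Genes of up to 200 exonic bases numbered 6 of 57 among the members and 64 of 12191 among all listed genes. Members were on chromosome X in 24.6% of cases and on chromosome V in 24.6%, against 13.1% and 18.3% of all, while chromosome III held 3 of 57 members and 2009 of 12191 listed genes. Protein-coding members had a median of 4 exons and 1169 exonic bases, against 6 and 1437.

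Several members lie next to or over other heat-induced genes. F45D3.3 (V:12549211-12550385) and F45D3.4 (V:12552213-12553191) are neighbours on the minus strand, 1827 bases apart, and were the only members within 5 kb of each other. F45D3.3 went from 22.1, 18 and 16.7 CPM to 79.9, 76.2 and 82.1 CPM in JTL611 on ethanol, and F45D3.4 from 18.9, 16.7 and 7.06 CPM to 92.3, 80.0 and 88.8 CPM. Both had their largest change there (2.02 ± 0.13 and 2.63 ± 0.33) and their smallest in CA1199 on auxin (0.79 ± 0.14 and 1.39 ± 0.18). fil-2 lies 1212 bases from spe-49, on the same strand, and F09E10.15 lies 1460 bases from tts-1 on the other strand, both heat-induced genes that were set aside by name.

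In all, 11 members overlap another listed gene, and their counts are uncertain to that extent. H40L08.7 lies on the same strand as H40L08.2, which covers it and just missed the thresholds, so reads of the pair cannot be told apart by position. H40L08.7 rose by 1.0 to 1.39 in the 4 contrasts. C50F4.6 shares 173 bases with the histone gene his-41 on the same strand, and his-41 also exceeded the thresholds.

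No member belonged to the lists for F-box, MATH and BTB adaptors, the intracellular pathogen response, antimicrobial genes, hypoxia, oxidative stress, heavy metals, osmotic stress, bZIP factors, MAPK pathways, autophagy or chemosensory guanylyl cyclases. The choice of members fixed part of this, since atf-2 and zip-10 met the thresholds and were set aside by name, as were all symbols starting with mtl-, gst- and clec-. The counts that follow run over JTL611 on ethanol and CA1200, CA1199 and JTL621 on auxin, where 2.31%, 9.57%, 3.83% and 6.22% of all genes rose. Of the 124 to 143 adaptor genes tested, 1, 7, 3 and 6 rose and 2, 3, 18 and 4 fell. Of 39 to 43 antimicrobial genes, 0, 1, 1 and 4 rose and 3, 16, 20 and 6 fell, and of 19 or 20 pathogen response genes, 0, 0, 0 and 1 rose. Of 9 hypoxia genes none rose and 1, 2, 2 and 4 fell. Of 12 or 13 oxidative stress genes 0, 2, 0 and 1 rose, of 5 osmotic stress genes 0, 0, 0 and 1, and of 13 or 14 MAPK genes 0, 2, 0 and 0. Of 19 bZIP genes 2, 3, 2 and 1 rose, of 11 autophagy genes 0, 3, 2 and 1, and of 6 or 7 heavy metal genes 2, 2, 0 and 2. None of the 8 to 10 chemosensory genes rose.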

How the data were processed

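RNA-seq of 48 whole-worm libraries was analysed. Per the submitters' processing notes, STAR, featureCounts and edgeR were used with the builds WBcel235 and ce11. Per the file headers, the authors deposited log2 CPM values per strain, and edgeR tables of auxin against ethanol after heat with logFC, a likelihood ratio score, and p-values with FDR. Each strain's table was normalised separately. The log2 values were converted to CPM. Whole reads came out for 100% of values within 0.05 of a read, at 9000611 to 24025791 reads per library.

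The test covered genes averaging 1 CPM or more across the 12 libraries of a strain (11878 to 12228 genes), and all 57 members passed. limma 3.58.1 (R 4.3.3) with a mean-variance trend was fitted to log2(CPM + 1) over the 12 libraries of a strain, or 24 for the difference between strains, with Benjamini-Hochberg adjustment over all genes tested. Fold changes on that scale understate changes of low genes. Other values came from Python 3.11.15 with pandas 2.3.3. Groups came from the sample labels. The fit was tested on simulated counts. Annotation was Ensembl 115, WBcel235, with symbols for 11832 of 12191 genes; 7 members without one are given by identifier. Promoter motifs were not analysed here.

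Deviations from the group means of heated and unheated libraries with the same replicate number correlated at 0.237 to 0.569 in JTL611 on ethanol, 0.288 to 0.305 in CA1200 and 0.175 to 0.498 in CA1199 on auxin. Differently numbered libraries correlated at −0.398 to −0.0163, −0.279 to 0.00565 and −0.459 to 0.160 in that order. The numbers may thus pair libraries there, least clearly in CA1199, and the main fits did not use them. Named genes were the 10 with the highest and the 5 with the lowest mean change over the 4 tested contrasts, the 5 with the highest heated CPM, members of marker lists, members within 5 kb of each other and those nearest the thresholds. The members and lists were chosen with earlier results of these data known. Alternatives tried were a pseudocount of 0.5, the deposited log2 values, no filter, quantile normalisation, limma-voom on recovered reads, a fit to fewer libraries, a replicate block and leaving out each replicate.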

Additional observations from a re-analysis of the deposited data

How the results depend on the processing

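Every count of members that rose stayed within 1.5 times its value under every alternative run, and no named gene changed direction. Members that rose numbered 44 to 57 in JTL611 on ethanol, 53 to 56 in CA1200 on auxin, 55 to 57 in CA1199 and 53 to 56 in JTL621 over the settings that kept all replicates, and 49 to 53, 52 to 53, 52 to 54 and 52 to 56 when 1 library was left out. The lowest count, 44, came from a fit to the 6 libraries compared. With the replicate number as a block the counts were 57, 56, 55 and 56, and 53 members rose in all 4 contrasts in place of 45. In JTL621 on auxin the same-numbered libraries correlated at 0.0955 to 0.121, and the block moved the adjusted p of pqn-75 from 0.07 to 0.0351. The difference between JTL621 and CA1199 called 0 members under every alternative run for it, the block included; quantile normalisation and limma-voom were not run for it. There, 9 to 16 members had an unadjusted p under 0.05 with a larger change when 1 library was left out. The counts over all genes moved more: 136 to 413, 598 to 1481, 250 to 1303 and 181 to 1531 rose in the 4 contrasts. Among named genes, myo-1 in JTL611 on ethanol did not pass without heated replicate 3 or without unheated replicate 1 or 2 (adjusted p of 0.0639 to 0.0858 over these and the fit to 6 libraries), and myo-2 in JTL621 on auxin did not pass in 4 fits without 1 library (0.0517 to 0.0771). The causes were not tested. Depth limits genes near the floor of 0.127 to 0.478 CPM.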
